A study of Mus musculus with 12 samples.

Results

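Heat shock proteins and their J protein partners were examined in mouse liver as 1 family of molecular chaperones. The genes were chosen by name: every symbol of the HSP70 (Hspa), small heat shock (Hspb), HSP90, HSP110 (Hsph1), chaperonin (Hspd1, Hspe1) and J protein (Dnaja, Dnajb, Dnajc) families that the array's annotation gives to a probe set with 1 symbol. Of 18194 genes on the array, 68 met this rule. The rule uses names alone, but the members were chosen with earlier results of these data known. Hspa5 and Dnajb9 were left out by the rule. The 68 genes comprise 11 HSP70 and HSP110 genes of the cytosol and nucleus, 4 genes for HSP90 or for HSP70 of the endoplasmic reticulum or mitochondria, and 2 for the mitochondrial chaperonin. A further 8 carry small heat shock (Hspb) symbols, 11 encode J proteins of the endoplasmic reticulum, 6 encode mitochondrial J proteins and 26 encode other J proteins. Hsp90ab1 and Dnajc19 were not analysed here.

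HSP70 proteins bind exposed stretches of unfolded proteins and release them through cycles of ATP binding and hydrolysis. J proteins bring clients to HSP70 and speed its ATP hydrolysis, HSP110 exchanges the nucleotide, HSP90 finishes the folding of many kinases and receptors, and small heat shock proteins hold unfolded proteins without using ATP. Many of these genes are switched on by the transcription factor HSF1, which binds heat shock elements made of repeated nGAAn units, while the endoplasmic reticulum members are switched on through the unfolded protein response. In mouse liver, heat shock genes are known to follow the daily rhythm of feeding and body temperature.

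The series addresses how glucose sensing in the liver bears on the glucose response of beta cells. Liver RNA of SV129XC57Bl/6 mice was measured on 12 Affymetrix arrays, 3 in each of 4 groups, with the RNA of 3 animals pooled per array. The groups are LG2KO refed, LG2KO fasted, control refed and control fasted, where refed animals were fasted and then fed again. LG2KO is read here as a liver knockout of the glucose transporter Glut2, encoded by Slc2a2; the labels do not spell the name out or give the promoter that drives the recombinase. LG2KO livers are labelled as tamoxifen-treated and control livers carry no such label, so genotype and tamoxifen cannot be told apart. The LG2KO fasted arrays carry a conflicting source field (fasted/refed); their group was taken from the title and the diet label, both of which read fasted. The labels give no age, sex or length of the fast and of refeeding. Values are log2 expression levels from RMA (robust multi-array average), so a difference of 1 is a doubling. Levels of different probe sets are not comparable with each other.

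Slc2a2 checked the labels first. Its mean log2 level was 3.74 ± 0.09 in refed and 3.90 ± 0.30 in fasted LG2KO livers, against 10.96 ± 0.32 in refed and 10.64 ± 0.56 in fasted control livers (SD, n = 3 pools each). Every array labelled LG2KO lay far below every control array. Among 9 measured hepatocyte markers the mean level was between 13.59 and 13.80 on all 12 arrays. LG2KO fasted 3 and control refed 1 stood apart from the rest on the second principal component (-31.4 and 37.1, against -11.4 to 7.46 on the other arrays). The 68 chaperone genes deviated from their averages by a mean of -0.29 and 0.24 on these arrays, the lowest and the highest of the 12, and the key results are given with and without both. Control fasted 3 carried transcripts of exocrine pancreas and muscle: 8 pancreas markers averaged 8.11 there, against 5.27 to 5.57 on the other arrays, and 12 muscle markers averaged 6.09, against 4.96 to 5.23. On LG2KO refed 2, which has the highest refed LG2KO values of Hsph1, Hspb1, Hsp90aa1 and Hspa1b, 5 adipose markers averaged 5.18, against 3.94 to 4.39 elsewhere. On LG2KO refed 3, 10 lymphocyte and neutrophil markers averaged 5.94, against 5.10 to 5.76. The actin probe sets of the 3′ and 5′ ends, a sign of RNA quality, differed by 0.65 to 0.71 on refed and 0.76 to 0.82 on fasted LG2KO arrays, without overlap, and by 0.66 to 0.75 on refed and 0.68 to 0.76 on fasted control arrays. The refeeding calls of Hspb1 and Hsph1 in LG2KO passed without either of these refed arrays, while that of Hsp90aa1 did not pass without either; the part of the actin difference was not tested. These are bulk tissue values, in which fewer cells of a type and less RNA per cell cannot be told apart.

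Refeeding raised some of the chaperone genes in both genotypes, and how many passed depended on the arrays in the fit. In LG2KO livers 7 of the 68 genes were higher after refeeding and 1 was lower at an adjusted p below 0.05 (limma), which is 11.8% of them, against 7.05% of all genes tested. In control livers 11 were higher and 2 lower, which is 19.1%, against 6.46% of all genes. Across the whole array 4.66% of genes were higher and 2.4% lower in LG2KO livers, and 3.29% were higher and 3.17% lower in controls. The median log2 difference over the 68 genes was 0.05 in LG2KO (0.01 over all genes) and 0.10 in controls (-0.01 over all genes). Rises and falls cancel in such a median. Unadjusted p (limma) lay below 0.05 for 21 of the 68 in LG2KO and 22 in controls, against 3307 and 3038 of all 18194 genes. Groups of arrays did not overlap, with refed higher, for 15 of the 68 genes in LG2KO (22.1%, against 14.1% of all genes) and for 17 in controls (25%, against 9.64%). With refed lower, 4 did not overlap in LG2KO (5.88%, against 8.38% of all genes) and 3 in controls (4.41%, against 10.8%). All 8 genes called in LG2KO were among the 13 called in controls and moved the same way, which is 100% of the LG2KO calls and 61.5% of the control calls; over all genes the shares were 52.8% and 57.6%. The group means of the LG2KO and control refeeding comparisons share no arrays. Both take their standard errors from 1 fit of all 12 arrays, so the 2 sets of calls are not independent.

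**Figure D1:**
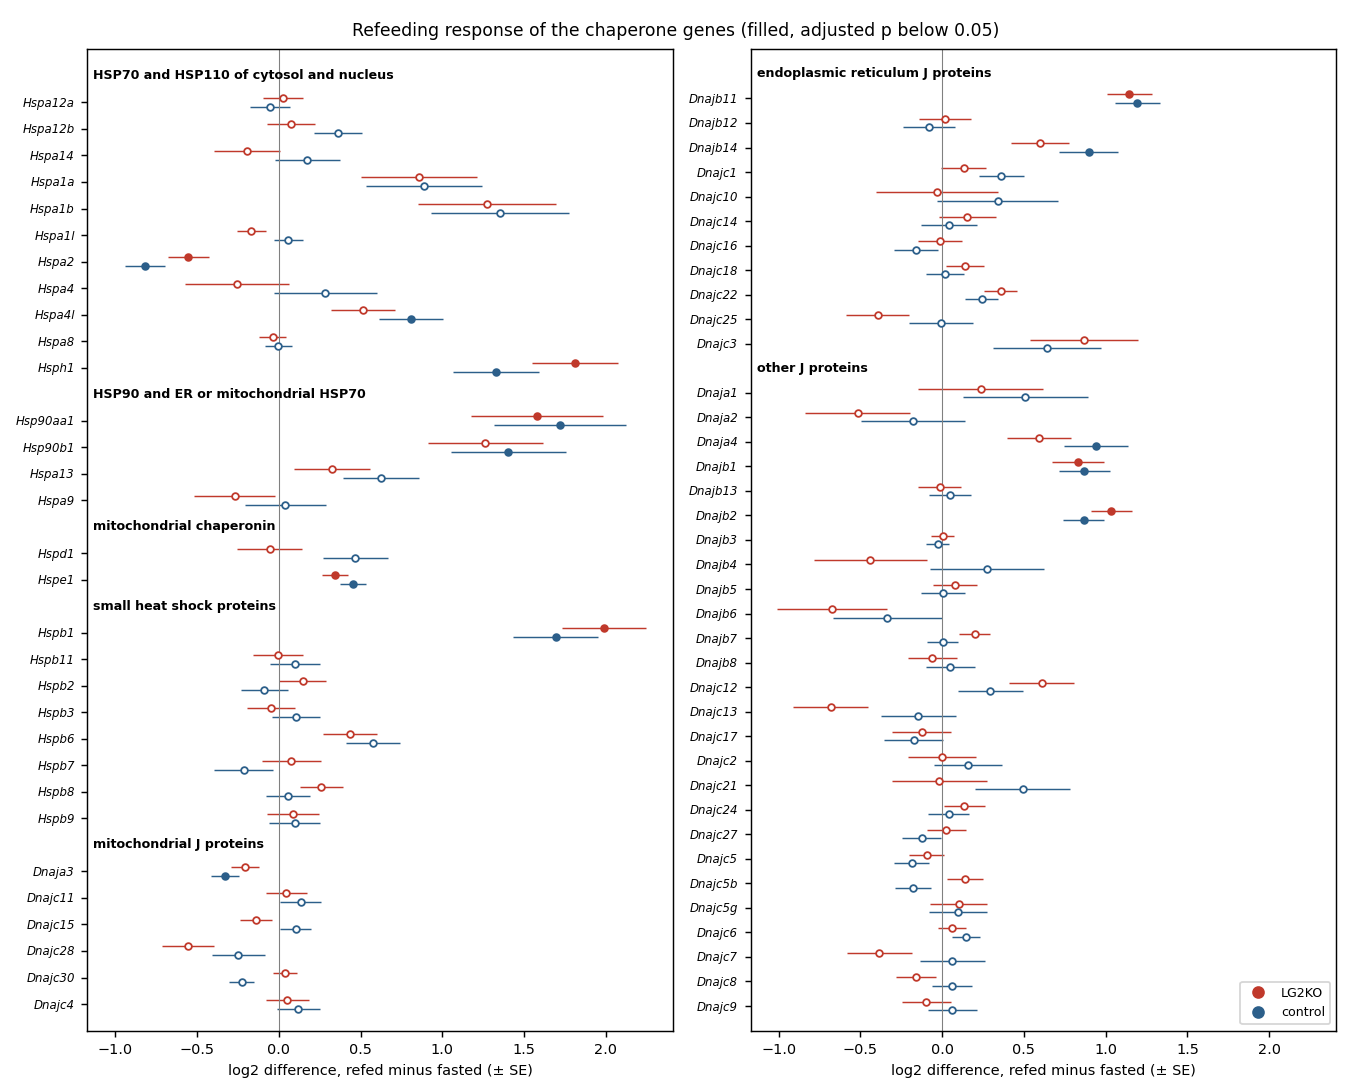
Refeeding response of the 68 chaperone genes, grouped by role, as the log2 difference refed minus fasted (x axis, bars are standard errors) in LG2KO (red, upper of each pair) and control livers (blue, lower). Filled symbols passed an adjusted p below 0.05. A few members, led by Hspb1, Hsp90aa1 and Hsph1, lie between 1 and 2.

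Hsph1 encodes HSP110, the nucleotide exchange factor that also keeps denatured proteins soluble. It read 8.71, 9.70 and 9.08 in refed LG2KO livers, against 7.77, 7.57 and 6.73 in fasted LG2KO livers. In controls it read 9.58, 9.44 and 9.55 refed, against 8.24, 8.30 and 8.05 fasted. Every refed array lay above every fasted array of its genotype. The log2 difference was 1.81 ± 0.26 (SE, adjusted p = 0.0012) in LG2KO and 1.33 ± 0.26 (adjusted p = 0.00863) in controls. Hspb1, the small heat shock protein HSP27 (called HSP25 in mouse), read 11.14, 11.85 and 10.97 in refed LG2KO livers, against 9.53, 9.15 and 9.31 in fasted ones. Its control values were 11.11, 12.12 and 12.06 refed, against 10.20, 10.07 and 9.94 fasted. Again the groups did not overlap, although the low refed control value came from the array that stood apart. Hspb1 differed by 1.99 ± 0.26 (adjusted p = 0.000611) in LG2KO and by 1.69 ± 0.26 (adjusted p = 0.00176) in controls.

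The promoter windows of both genes are shown because heat shock elements lie in them. The windows are from RefSeq on mouse build GRCm38.p6, from 250 bases before to 50 bases after a transcript start, and read 5′ to 3′ on the gene's strand. Hsph1 (minus strand, chr5:149636266-149636565, 1 of 2 annotated starts) holds 1 element of 3 units, in capitals, that begins at base 16 of the transcript. Hspb1 (plus strand, chr5:135887669-135887968) holds 2 elements of 2 units each, in capitals, that begin at positions -117 and -97 from the start.
Hsph1: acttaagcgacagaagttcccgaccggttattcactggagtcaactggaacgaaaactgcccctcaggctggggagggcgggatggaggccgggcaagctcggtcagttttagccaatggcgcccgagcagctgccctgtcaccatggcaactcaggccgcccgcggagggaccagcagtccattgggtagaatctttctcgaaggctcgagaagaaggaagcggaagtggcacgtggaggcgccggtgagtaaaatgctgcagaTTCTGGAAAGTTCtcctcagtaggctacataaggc
Hspb1: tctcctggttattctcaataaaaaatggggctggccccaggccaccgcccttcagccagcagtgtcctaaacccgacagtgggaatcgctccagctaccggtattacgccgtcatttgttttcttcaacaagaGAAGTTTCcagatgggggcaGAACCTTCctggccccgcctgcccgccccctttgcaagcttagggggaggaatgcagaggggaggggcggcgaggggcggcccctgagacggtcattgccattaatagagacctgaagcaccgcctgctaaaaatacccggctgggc

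Windows were available for 55 of the 68 genes and for 27025 genes in all. All motifs were searched on both strands. The 3-unit element, GAANNTTC followed by NN and GAA, occurred in 4 chaperone genes (Hsph1, Hspe1, Hspd1 and Dnajb6), which is 7.27% of those with a window, against 0.662% of all genes. Windows of Hspe1 and Hspd1 share 285 bases, so their matches are the same bases read on opposite strands. The 2-unit element GAANNTTC, which lies inside the 3-unit one, occurred in 14 (25.5%, against 9.04%). These are the 4 above with Hspb1, Hspb3, Hspb6, Hspb8, Hspa1a, Hspa1b, Dnaja1, Dnaja4, Dnajc27 and Dnajc5g. Hspa1a and Hspa1b, which are near-identical, hold the same letters at the same position (-104). The outward-facing pair TTCNNGAA, also part of the 3-unit element, occurred in 6 (10.9%, against 9.6%). A match describes the letters in a window. Dnajb6 and Hspd1 hold the 3-unit element and did not pass in either genotype with all arrays. Of the genes with the 2-unit but not the 3-unit element, Hspb1 passed in both genotypes, Dnaja4 in controls and the rest in neither. Dnajb1, Dnajb2 and Hsp90aa1 passed in both genotypes and are in none of these lists, which cannot include a gene without a window.

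Hsp90aa1, the stress-inducible cytosolic HSP90, spread more between pools. It read 7.49, 8.65 and 8.34 in refed LG2KO livers, against 7.31, 6.56 and 5.88 in fasted ones, and 9.51, 8.79 and 8.38 in refed control livers, against 6.91, 7.72 and 6.90 in fasted ones. The groups did not overlap in either genotype. The difference was 1.58 ± 0.40 (adjusted p = 0.0331) in LG2KO and 1.72 ± 0.40 (adjusted p = 0.023) in controls. Both calls depend on single arrays: without LG2KO refed 2, LG2KO refed 3, LG2KO fasted 2 or LG2KO fasted 3 the LG2KO difference was 1.23 to 1.57 (adjusted p = 0.0854 to 0.14), and without control refed 1, control refed 2, control fasted 1 or control fasted 3 the control difference was 1.41 to 1.77 (adjusted p = 0.0654 to 0.0975).

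The inducible HSP70 genes Hspa1a and Hspa1b lie next to each other on chromosome 17 and are near-identical, so their probe sets may read each other's transcripts. Hspa1b read 10.33, 11.23 and 10.53 in refed LG2KO livers, against 9.19, 9.34 and 9.75 in fasted ones. Its control values were 10.15, 11.41 and 11.59 refed, against 10.65, 9.31 and 9.14 fasted. The LG2KO groups did not overlap; in controls refed 1, an array that stood apart, lay below fasted 1. With all arrays the difference was 1.27 ± 0.42 (adjusted p = 0.103) in LG2KO and 1.35 ± 0.42 (adjusted p = 0.0874) in controls, and neither passed. Without the 2 arrays that stood apart Hspa1b rose by 1.44 (adjusted p = 0.0222) in LG2KO and by 1.80 (adjusted p = 0.00942) in controls. Leaving out control refed 1 alone had the same effect, with 1.27 (adjusted p = 0.0398) and 1.80 (adjusted p = 0.0142), as did leaving out control fasted 1 alone, with 1.27 (adjusted p = 0.0495) and 1.83 (adjusted p = 0.0207). Hspa1a read 5.21, 6.10 and 5.22 in refed LG2KO livers, against 4.79, 4.58 and 4.59 in fasted ones, and 4.93, 6.36 and 6.20 in refed control livers, against 5.45, 4.65 and 4.71 in fasted ones. The LG2KO groups did not overlap, and in controls refed 1 again lay below fasted 1. Its differences of 0.86 ± 0.36 (adjusted p = 0.209) in LG2KO and 0.89 ± 0.36 (adjusted p = 0.206) in controls did not pass; without control refed 1 alone the control difference was 1.34 (adjusted p = 0.0127).

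Hspa8, the constitutive HSP70 of the cytosol, was flat beside these. It read 12.40, 12.65 and 12.36 in refed LG2KO livers, against 12.51, 12.61 and 12.40 in fasted ones, and 12.67, 12.49 and 12.52 in refed control livers, against 12.58, 12.54 and 12.57 in fasted ones. All groups overlapped. The difference was -0.04 ± 0.08 (adjusted p = 0.915) in LG2KO and -0.00 ± 0.08 (adjusted p = 0.992) in controls. Hspa2, a testis-enriched HSP70, went the other way: 5.37, 5.07 and 5.12 in refed LG2KO livers, against 5.85, 5.59 and 5.79 in fasted ones, and 4.90, 4.87 and 4.68 in refed control livers, against 5.72, 5.54 and 5.65 in fasted ones. Refed arrays lay below fasted arrays throughout. Hspa2 fell by 0.55 ± 0.12 (adjusted p = 0.017) in LG2KO and by 0.82 ± 0.12 (adjusted p = 0.00153) in controls. The LG2KO call was lost without LG2KO refed 2, LG2KO refed 3 or LG2KO fasted 1 (adjusted p = 0.0751 to 0.0823). Hspa4l, an HSP110 relative, had a difference of 0.52 ± 0.20 (adjusted p = 0.161) in LG2KO and rose by 0.81 ± 0.20 (adjusted p = 0.0276) in controls. That control call was lost without any 1 of 5 of the 6 control arrays (all but refed 3), at adjusted p = 0.0659 to 0.102. Hspa12a, Hspa12b, Hspa14, Hspa1l and Hspa4, the rest of this role, did not pass in either genotype, with differences of -0.26 to 0.07 in LG2KO and -0.05 to 0.36 in controls.

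**Figure D2:**
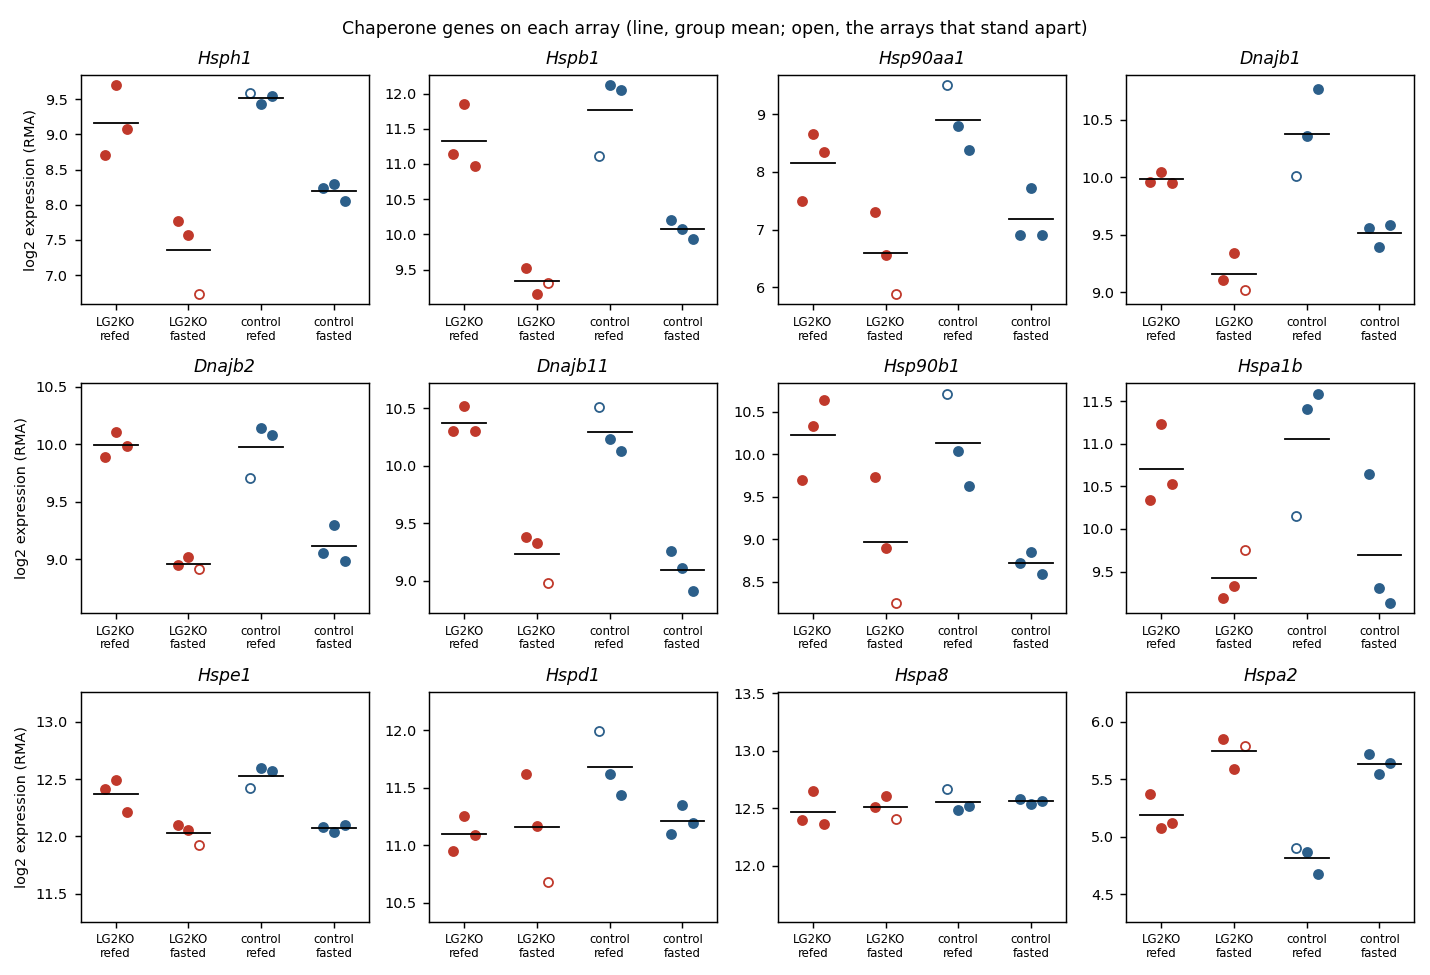
Log2 expression (y axis) of 12 chaperone genes on every array, in the order LG2KO refed, LG2KO fasted, control refed and control fasted. Each point is 1 array, lines are group means and open points are the 2 arrays that stood apart. Hsph1, Hspb1, Hsp90aa1, Dnajb1, Dnajb2, Dnajb11 and Hspe1 are higher on all refed arrays than on all fasted arrays of their genotype, and Hspa2 is lower.

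Among J proteins of the cytosol, Dnajb1 and Dnajb2 rose. Dnajb1 (HSP40), the main J partner of inducible HSP70, read 9.96, 10.05 and 9.95 in refed LG2KO livers, against 9.11, 9.34 and 9.02 in fasted ones. In controls it read 10.01, 10.36 and 10.77 refed, against 9.56, 9.39 and 9.58 fasted. It did not overlap between feeding states, and differed by 0.83 ± 0.16 (adjusted p = 0.00672) in LG2KO and by 0.87 ± 0.16 (adjusted p = 0.00477) in controls. Dnajb2, which binds ubiquitylated clients and directs them to the proteasome, read 9.89, 10.11 and 9.99 in refed LG2KO livers, against 8.95, 9.02 and 8.92 in fasted ones. Its control values were 9.71, 10.14 and 10.08 refed, against 9.06, 9.30 and 8.98 fasted. The fasted arrays of both genotypes lay below all refed arrays. Dnajb2 differed by 1.03 ± 0.12 (adjusted p = 0.000356) in LG2KO and by 0.87 ± 0.12 (adjusted p = 0.00111) in controls. Dnaja4, a cytosolic HSP40 of the type I class, read 6.93, 6.63 and 6.37 in refed LG2KO livers, against 5.93, 6.17 and 6.05 in fasted ones, and 6.59, 6.93 and 6.89 in refed control livers, against 6.18, 5.43 and 5.98 in fasted ones. It differed by 0.59 ± 0.20 (adjusted p = 0.102) in LG2KO and rose by 0.94 ± 0.20 (adjusted p = 0.0123) in controls. Its groups did not overlap. One of its other probe sets had the opposite sign in controls (-0.12, adjusted p = 0.83 in a fit of all probe sets), the mean of its probe sets did not pass (0.56, adjusted p = 0.11), and the call was lost without control refed 2 or control refed 3 (adjusted p = 0.0569 and 0.0503).

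Dnaja1, the farnesylated J protein that works with Hspa8, did not pass. It read 9.02, 9.85 and 9.25 in refed LG2KO livers, against 9.85, 9.23 and 8.33 in fasted ones, and 10.61, 9.53 and 9.33 in refed control livers, against 9.01, 9.46 and 9.46 in fasted ones. The groups overlapped in both genotypes, and the highest and lowest of the 12 values came from the 2 arrays that stood apart. The difference was 0.23 ± 0.38 (adjusted p = 0.87) in LG2KO and 0.51 ± 0.38 (adjusted p = 0.62) in controls, and without LG2KO fasted 3 the LG2KO difference was -0.17. Of the 26 other J proteins, which include Dnajc7, Dnajc13 and Dnajc2, 2 were higher in LG2KO and 3 in controls (limma). Of all genes 4.66% and 3.29% were higher. In either genotype 0 of the 26 were lower (2.4% and 3.17% of all genes). Unadjusted p lay below 0.05 for 5 and 3 of the 26, against 3307 and 3038 of all 18194 genes.

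The mitochondrial chaperonin pair Hspd1 (HSP60) and Hspe1 (HSP10) is transcribed head to head from 1 shared promoter on chromosome 1. The Hspe1 window (plus strand, chr1:55087898-55088197) shares 285 bases with a window of Hspd1 on the minus strand and holds 2 overlapping 3-unit heat shock elements, which form the run in capitals that begins at position -89 from the start.
Hspe1: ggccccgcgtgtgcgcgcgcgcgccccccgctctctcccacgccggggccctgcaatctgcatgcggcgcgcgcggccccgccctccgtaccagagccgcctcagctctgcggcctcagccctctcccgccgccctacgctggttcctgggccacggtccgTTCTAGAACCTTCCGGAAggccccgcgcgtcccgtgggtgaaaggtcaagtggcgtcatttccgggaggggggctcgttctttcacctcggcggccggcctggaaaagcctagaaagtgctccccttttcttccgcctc

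Hspe1 read 12.41, 12.49 and 12.21 in refed LG2KO livers, against 12.10, 12.06 and 11.93 in fasted ones, and 12.42, 12.59 and 12.57 in refed control livers, against 12.08, 12.04 and 12.10 in fasted ones. The groups did not overlap in either genotype. It rose by 0.34 ± 0.08 (adjusted p = 0.0187) in LG2KO and by 0.46 ± 0.08 (adjusted p = 0.00353) in controls. The LG2KO call was lost without LG2KO refed 1, LG2KO refed 2, LG2KO fasted 2 or LG2KO fasted 3 (adjusted p = 0.0534 to 0.0914). Hspd1 read 10.95, 11.25 and 11.08 in refed LG2KO livers, against 11.62, 11.16 and 10.68 in fasted ones. In controls it read 11.99, 11.62 and 11.43 refed, against 11.10, 11.35 and 11.19 fasted. The LG2KO groups overlapped and the control groups did not. Its difference of -0.06 ± 0.20 (adjusted p = 0.952) in LG2KO and 0.47 ± 0.20 (adjusted p = 0.247) in controls did not pass.

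In the endoplasmic reticulum, Hsp90b1 (GRP94, the HSP90 of that compartment) and Dnajb11 (ERdj3, a J partner of BiP) rose. Dnajb11 read 10.30, 10.53 and 10.30 in refed LG2KO livers, against 9.38, 9.33 and 8.98 in fasted ones. Its control values were 10.51, 10.23 and 10.13 refed, against 9.26, 9.11 and 8.92 fasted. All refed values exceeded all fasted ones. The difference was 1.15 ± 0.14 (adjusted p = 0.000355) in LG2KO and 1.19 ± 0.14 (adjusted p = 0.000218) in controls, the smallest adjusted p of the 68 genes in both refeeding comparisons. Hsp90b1 read 9.70, 10.33 and 10.64 in refed LG2KO livers, against 9.73, 8.90 and 8.25 in fasted ones, and 10.71, 10.03 and 9.63 in refed control livers, against 8.72, 8.85 and 8.59 in fasted ones. The LG2KO groups overlapped by 1 array. The difference was 1.26 ± 0.35 (adjusted p = 0.0501) in LG2KO, just outside the threshold, and 1.40 ± 0.35 (adjusted p = 0.0316) in controls, where the call was lost without any 1 of 5 of the 6 control arrays (all but refed 3; adjusted p = 0.0763 to 0.105). Without the 2 arrays that stood apart Hsp90b1 passed in both, at 0.91 (adjusted p = 0.0397) in LG2KO and 1.11 (adjusted p = 0.0211) in controls.

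Windows of both genes are shown because each holds an endoplasmic reticulum stress element, which the unfolded protein response factors bind. Hsp90b1 (minus strand, chr10:86705395-86705694) holds CCAAT followed by any 9 bases and CCACG, once on each strand, in capitals that begin at positions -212 and -107 from the start. Dnajb11 (plus strand, chr16:22857595-22857894) holds the related element II, ATTGG and CCACG 1 base apart, in capitals that begin at base 8 of the transcript.
Hsp90b1: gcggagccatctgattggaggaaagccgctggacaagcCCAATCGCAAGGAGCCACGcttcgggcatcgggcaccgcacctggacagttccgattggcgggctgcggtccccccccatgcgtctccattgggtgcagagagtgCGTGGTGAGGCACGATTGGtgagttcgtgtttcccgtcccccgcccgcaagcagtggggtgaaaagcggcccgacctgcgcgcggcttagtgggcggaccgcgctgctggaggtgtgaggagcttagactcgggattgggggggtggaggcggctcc
Dnajb11: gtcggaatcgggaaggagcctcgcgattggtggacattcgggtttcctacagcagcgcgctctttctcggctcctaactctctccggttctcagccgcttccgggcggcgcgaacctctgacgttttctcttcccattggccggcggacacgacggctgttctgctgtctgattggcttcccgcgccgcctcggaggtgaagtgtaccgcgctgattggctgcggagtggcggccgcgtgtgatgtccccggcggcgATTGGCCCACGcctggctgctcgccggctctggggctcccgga

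The first of these elements occurred, on either strand, in the windows of 2 of the 55 chaperone genes (Hsp90b1 and Dnajc3, 3.64%), against 0.137% of all genes. The second occurred in Dnajb11 alone (1.82%, against 0.0444% of all genes). Dnajc3 (P58IPK), a J protein that restrains the kinase PERK, had a difference of 0.87 ± 0.33 (adjusted p = 0.16) in LG2KO and 0.64 ± 0.33 (adjusted p = 0.375) in controls. Dnajb14, a J protein anchored in the endoplasmic reticulum membrane, read 4.74, 4.59 and 4.50 in refed LG2KO livers, against 3.99, 4.20 and 3.83 in fasted ones, and 5.24, 5.03 and 4.62 in refed control livers, against 3.75, 4.13 and 4.33 in fasted ones. Its groups did not overlap, its level lies below the median of all probe sets, and its difference was 0.60 ± 0.18 (adjusted p = 0.0664) in LG2KO and 0.90 ± 0.18 (adjusted p = 0.00899) in controls. Of the 11 J proteins of the endoplasmic reticulum, 1 was higher in LG2KO (Dnajb11) and 2 in controls (Dnajb11 and Dnajb14). Of all genes 4.66% and 3.29% were higher.

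Of the 6 mitochondrial J proteins, 0 passed in LG2KO and 1, Dnaja3, passed in controls (limma, against 7.05% and 6.46% of all genes). In each genotype 2 of the 6 had an unadjusted p below 0.05, against 3307 (LG2KO) and 3038 (control) of all 18194 genes. Dnajc28 had a difference of -0.56 ± 0.16 (adjusted p = 0.0588) in LG2KO, with refed arrays all below fasted arrays, and -0.25 ± 0.16 (adjusted p = 0.536) in controls; without the 2 arrays that stood apart it passed in LG2KO at -0.70 (adjusted p = 0.00462). Dnaja3 (TID1), the J partner of mitochondrial HSP70, read 10.17, 10.05 and 9.96 in refed LG2KO livers, against 10.30, 10.35 and 10.16 in fasted ones, and 10.25, 10.16 and 10.10 in refed control livers, against 10.58, 10.41 and 10.50 in fasted ones. The control groups did not overlap. Its difference was -0.21 ± 0.09 (adjusted p = 0.221) in LG2KO, and it fell by 0.33 ± 0.09 (adjusted p = 0.0422) in controls. Leaving out any 1 of 8 arrays ended that call (adjusted p = 0.0537 to 0.174): control refed 2 and 3, LG2KO refed 2, all 3 control fasted arrays, and LG2KO fasted 1 and 2. Another Dnaja3 probe set had the opposite sign (0.10, adjusted p = 0.749 in a fit of all probe sets). Among the 8 genes with small heat shock (Hspb) symbols Hspb1 alone passed, in both genotypes. Hspb6 (HSP20) differed by 0.43 ± 0.17 (adjusted p = 0.163) in LG2KO and by 0.58 ± 0.17 (adjusted p = 0.0605) in controls. With both arrays that stood apart left out Hspb6 passed too, at 0.47 (adjusted p = 0.0485) in LG2KO and 0.75 (adjusted p = 0.0071) in controls.

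**Figure D3:**
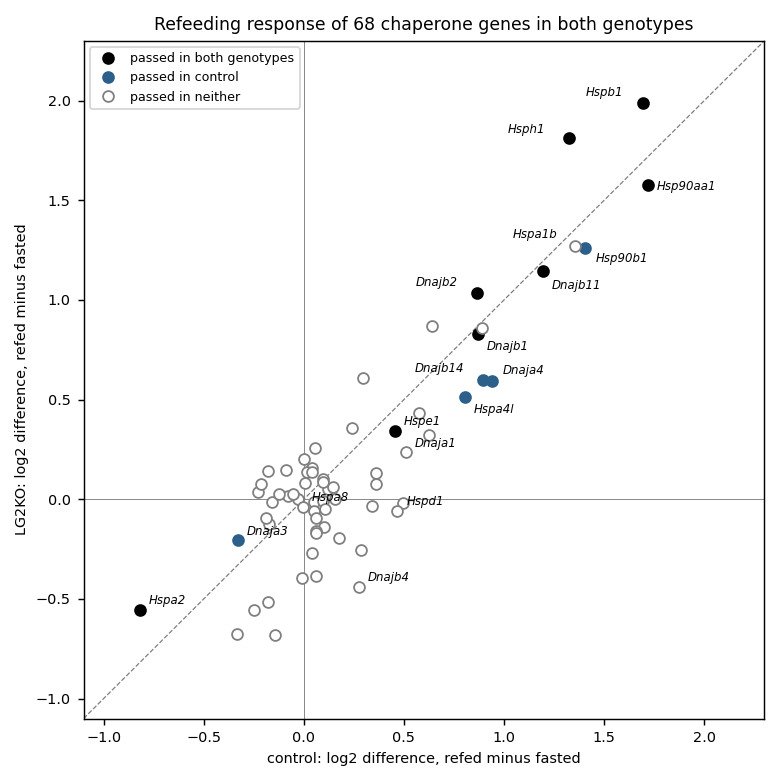
Refeeding response of the 68 chaperone genes in LG2KO livers (y axis) against control livers (x axis), both as log2 difference refed minus fasted; the dashed line marks equal responses. Black points passed in both genotypes, blue points in control livers and open points in neither; the 8 genes that passed in both lie on the same side of 0 on both axes.

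The 2 arrays that stood apart bear on the counts. Without them 22 of the 68 genes passed in LG2KO (17.5% of all genes). Of these, 11 were higher (7.74% of all genes) and 11 lower (9.78%). In controls 19 passed (12.1% of all genes), of which 14 were higher (6.33%) and 5 lower (5.77%). All 8 earlier LG2KO calls and 12 of the 13 control calls were among these. Genes lower after refeeding in both genotypes then included Dnajb6 (-1.01, adjusted p = 0.00499 in LG2KO and -0.71, adjusted p = 0.0366 in controls), Dnaja2 (-0.89, adjusted p = 0.00176 and -0.53, adjusted p = 0.0319) and the endosomal J protein Dnajc13 (-0.92, adjusted p = 0.00053 and -0.40, adjusted p = 0.0488). In LG2KO alone Hspa4, Hspa9, Hspa14, Dnajb4, Dnajc7, Dnajc25 and Dnajc28 also passed as lower, at -0.72 to -0.44. Single arrays moved the counts too: the control count was 8 without control refed 2 (4.17% of all genes in that fit), and the LG2KO count was 14 without control refed 1 (9.91%) and 5 without LG2KO refed 2 (3.92%). Under every alternative tried, 5 genes passed in both genotypes (Hspb1, Hsph1, Dnajb1, Dnajb2 and Dnajb11), and Hspe1 passed in controls. Hspa2 passed in controls in all 20 alternatives that included it. Its level lies below the median over genes, so the fit of genes above the median level left it out.

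Between genotypes no chaperone gene passed the test with all arrays. In refed livers 0 of 68 differed between LG2KO and control (limma; 0.379% of all genes, 0.291% higher and 0.0879% lower), with 7 at an unadjusted p below 0.05. In fasted livers 0 differed (limma; 0.396% of all genes, 0.308% higher and 0.0879% lower), with 6 at an unadjusted p below 0.05. The mean genotype difference over both feeding states gave 0 calls (limma, against 1.02% of all genes, 0.737% higher and 0.28% lower). Of the 68 genes, 10 had an unadjusted p below 0.05. Over all 18194 genes that limit was met by 1661 refed, 946 fasted and 1612 for the mean. The median difference over the 68 genes, LG2KO minus control, was -0.11 refed (0.02 over all genes), and 0.00 fasted. Leaving out single arrays moved it between -0.14 and -0.06 refed (-0.06 without control refed 1) and between -0.04 and 0.05 fasted. A missed threshold does not show equal levels. Arrays did not overlap between genotypes, with LG2KO higher, for 4 genes refed (5.88%, against 10.3% of all genes) and for 1 gene fasted (1.47%, against 4.67%). Hspa2 was among the 4 refed genes, with the largest positive refed difference of the 68 (0.38). LG2KO was lower without overlap for 5 genes refed (7.35%, against 5.19% of all genes) and for 9 fasted (13.2%, against 6.11%): Dnaja3, Dnajb1, Dnajb7, Dnajc12, Dnajc18, Dnajc5b, Hspb1, Hspb6 and Hsph1.

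The Hsph1 values above give a log2 difference of -0.36 ± 0.26 (adjusted p = 0.748) refed and -0.84 ± 0.26 (adjusted p = 0.445) fasted, with LG2KO fasted arrays all below control fasted arrays. Without LG2KO fasted 3, which stood apart, the fasted difference was -0.53. Hspb1 differed by -0.44 ± 0.26 (adjusted p = 0.667) refed and by -0.74 ± 0.26 (adjusted p = 0.638) fasted, again without overlap in fasted livers. Dnajb1 differed by -0.39 ± 0.16 (adjusted p = 0.451) refed and by -0.36 ± 0.16 (adjusted p = 0.924) fasted, and the refed difference was -0.20 without control refed 3 and -0.58 without control refed 1. Hspb6 read 8.12, 8.38 and 8.58 in refed LG2KO livers, against 8.50, 9.04 and 8.98 in refed control livers. In fasted livers it read 7.87, 7.91 and 8.0 in LG2KO, against 8.09, 8.19 and 8.51 in controls. Its highest fasted value is on the control array that carried muscle and pancreas transcripts, whose part in the difference was not tested; the gene is abundant in muscle. The Hspb6 difference was -0.48 ± 0.17 (adjusted p = 0.35) refed and -0.34 ± 0.17 (adjusted p = 0.997) fasted.

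Averaged over the feeding states, LG2KO minus control was -0.59 ± 0.18 (adjusted p = 0.23) for Hspb1, -0.41 ± 0.12 (adjusted p = 0.175) for Hspb6 and -0.38 ± 0.11 (adjusted p = 0.192) for Dnajb1. Without the 2 arrays that stood apart these 3 genes passed as lower in LG2KO, against 1.29% of all genes in either direction (0.841% higher, 0.451% lower): Hspb1 at -0.75 (adjusted p = 0.0376), Hspb6 at -0.51 (adjusted p = 0.0417) and Dnajb1 at -0.43 (adjusted p = 0.0365). Leaving out control refed 1 alone also gave 3 calls (1.14% of all genes in that fit), with Hspb1 at -0.75 (adjusted p = 0.0271) and Dnajb1 at -0.47 (adjusted p = 0.0263). Without both arrays 0 genes passed in refed livers (0.286% of all genes, 0.159% higher and 0.126% lower). In fasted livers 0 passed as well (0.511%, 0.379% higher and 0.132% lower). Unadjusted p (limma) lay below 0.05 for 11 of the 68 genes refed and 18 fasted, against 1819 and 2377 of all 18194 genes.

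**Figure D4:**
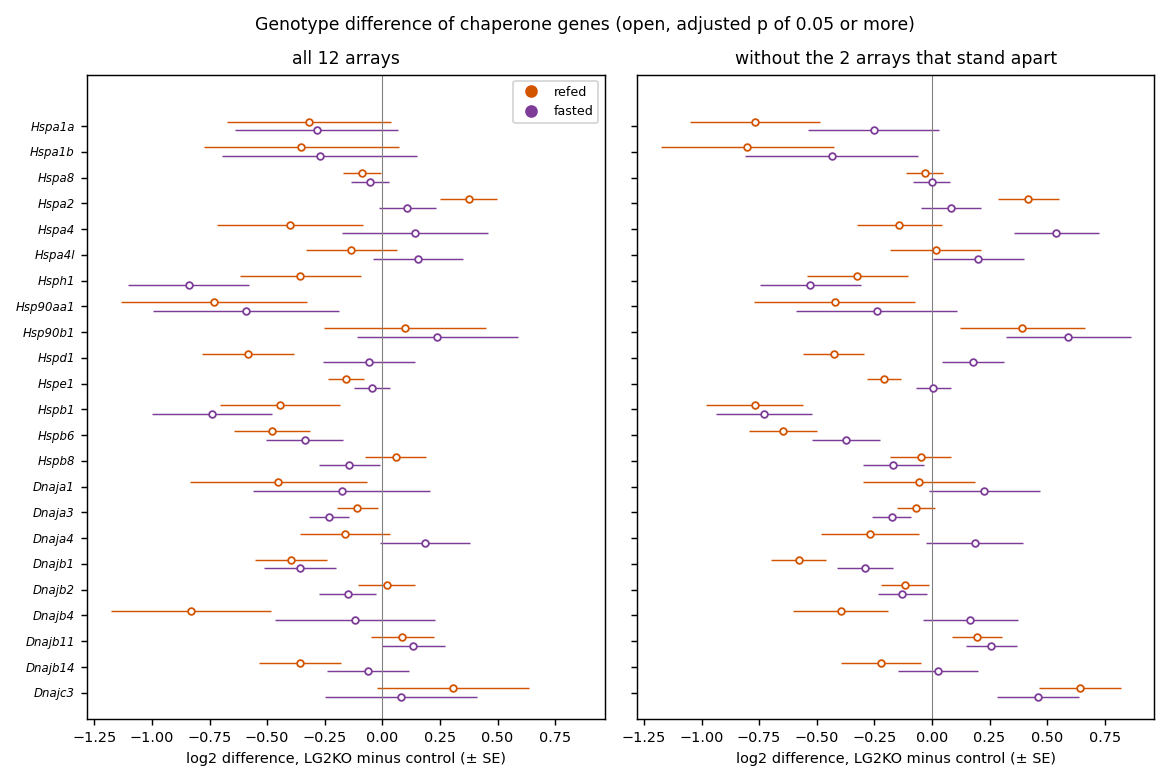
Genotype difference of 23 chaperone genes as log2 LG2KO minus control (x axis, bars are standard errors) in refed (orange, upper of each pair) and fasted livers (purple, lower), with all 12 arrays at left and without the 2 arrays that stood apart at right. No point passed an adjusted p below 0.05 in either feeding state.

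No difference in refeeding response between genotypes passed the test of the difference itself. The interaction, LG2KO refeeding minus control refeeding, gave 0 calls among the 68 genes (limma, against 0.0055% of all genes). Of them 1 gene, Dnajc30, had an unadjusted p below 0.05, against 861 of all 18194 genes. Dnajc30, a mitochondrial J protein, had an interaction of 0.27 ± 0.11 (adjusted p = 0.986). The interaction was 0.29 ± 0.37 (adjusted p = 0.99) for Hspb1, 0.49 ± 0.37 (adjusted p = 0.99) for Hsph1 and -0.52 ± 0.28 (adjusted p = 0.99) for Hspd1. With both arrays that stood apart left out it was -0.04 for Hspb1 and 0.20 for Hsph1. In that fit 0 of the 68 genes passed (limma), and 9 had an unadjusted p below 0.05, against 1523 of all 18194 genes. With all arrays the interaction was -0.05 ± 0.19 for Dnajb11 and -0.04 ± 0.22 for Dnajb1 (both adjusted p = 0.997). The median interaction over the 68 genes was -0.08.

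Partner genes were examined as lists drawn up with earlier results of these data known. Of 29 measured partners of HSP70 and HSP90, 6 were higher and 2 lower after refeeding in LG2KO, and 5 were higher and 2 lower in controls (7.05% and 6.46% of all genes passed in either direction). Without the 2 arrays that stood apart 11 were higher and 5 lower in LG2KO, and 8 higher and 2 lower in controls (17.5% and 12.1% of all genes). Fkbp4, a prolyl isomerase that rides on HSP90, read 10.94, 11.11 and 10.93 in refed LG2KO livers, against 9.58, 9.61 and 9.59 in fasted ones, and 10.68, 11.02 and 11.08 in refed control livers, against 9.65, 9.71 and 9.50 in fasted ones. The groups lay far apart, with differences of 1.40 ± 0.11 (adjusted p = 1.05e-05) in LG2KO and 1.30 ± 0.11 (adjusted p = 1.73e-05) in controls. Stip1 (HOP), which links HSP70 to HSP90, rose by 1.28 ± 0.12 in LG2KO and by 1.26 ± 0.12 in controls. Ahsa1, an activator of the HSP90 ATPase, rose by 0.69 ± 0.10 and 0.65 ± 0.10 in LG2KO and control livers. With the mean of all probe sets of a gene Ahsa1 differed by 0.32 (adjusted p = 0.0396) in LG2KO and by 0.26 (adjusted p = 0.102) in controls, where it no longer passed, and Fkbp4 by 0.67 and 0.64, where it did. The HSP70 exchange factors Bag2 (0.78 in LG2KO, 0.96 in controls) and Bag3 (0.67 and 0.64) rose too, and the ubiquitin ligase Stub1 (CHIP) passed in LG2KO (0.40, adjusted p = 0.0148; 0.16, adjusted p = 0.395 in controls). Fkbp5, a glucocorticoid-induced HSP90 partner, read 8.99, 8.76 and 8.73 in refed LG2KO livers, against 10.45, 10.26 and 10.10 in fasted ones, and 9.0, 8.04 and 8.14 in refed control livers, against 10.78, 10.37 and 10.44 in fasted ones. It fell by 1.45 ± 0.22 in LG2KO and by 2.14 ± 0.22 in controls, opposite to Fkbp4. Bag4 fell by 0.54 and by 0.74. Chordc1, an HSP90-binding protein, differed by 1.06 ± 0.48 (adjusted p = 0.265) in LG2KO and 1.17 ± 0.48 (adjusted p = 0.221) in controls and did not pass. Leaving out single arrays ended the Bag3 call in both genotypes (adjusted p up to 0.0816 in LG2KO and 0.108 in controls) and the Stub1 (up to 0.0706) and Bag4 (up to 0.134) calls in LG2KO.

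Of 19 measured partners in the endoplasmic reticulum, 12 were higher in LG2KO and 11 in controls after refeeding, and 0 were lower (limma). Of all genes 4.66% and 3.29% were higher, and 2.4% and 3.17% lower. Unadjusted p lay below 0.05 for 14 and 13 of the 19, against 3307 and 3038 of all 18194 genes. Sdf2l1, a BiP and ERdj3 cofactor, rose by 2.97 ± 0.14 in LG2KO and by 2.51 ± 0.14 in controls, and Creld2, a secreted stress protein of this compartment, by 3.09 ± 0.19 and 2.50 ± 0.19. Hyou1, the HSP110 relative of the endoplasmic reticulum, rose by 1.79 ± 0.12 and 1.78 ± 0.12. Manf, a secreted factor induced by stress of this compartment, rose by 1.54 ± 0.11 and 1.64 ± 0.11, and the disulfide isomerase Pdia4 by 1.42 ± 0.09 and 1.08 ± 0.09 in LG2KO and control livers. The lectin chaperone Calr rose by 0.76 ± 0.07 and 0.68 ± 0.07. Sec61b, a subunit of the translocon, rose by 0.56 ± 0.06 in LG2KO and by 0.75 ± 0.06 in controls. Sec61b also passed between genotypes, LG2KO minus control, at 0.37 ± 0.06 (adjusted p = 0.0184) in fasted livers and 0.28 ± 0.04 (adjusted p = 0.00813) for the mean of the feeding states, and at 0.18 ± 0.06 (adjusted p = 0.326) it did not in refed livers. Leaving out LG2KO fasted 1, 2 or 3 or control fasted 1 or 2 ended the fasted Sec61b call, as did 2 other alternatives (adjusted p up to 0.118), and the mean call ended without the intensity trend (adjusted p = 0.0555). With both arrays that stood apart left out, the endoplasmic reticulum partners gave 12 higher and 1 lower (Sec62) in LG2KO and 12 higher and 0 lower in controls. In that fit 7.74% of all genes were higher and 9.78% lower in LG2KO, and 6.33% and 5.77% in controls. Of 15 CCT chaperonin and prefoldin subunits, which fold actin and tubulin, 2 passed in each genotype: Cct7 (0.51 in LG2KO, 0.65 in controls) and Cct3 (0.53 and 0.79). Over all genes 7.05% passed in LG2KO and 6.46% in controls. Among 14 mitochondrial quality control partners, Clpp passed as higher in LG2KO (0.40) and Grpel2 as lower in controls (-0.68). With both arrays that stood apart left out, 2 CCT and prefoldin subunits were higher and 1 (Pfdn5) lower in LG2KO, against 4 and 0 in controls, and 1 mitochondrial partner was higher and 3 lower in LG2KO, against 1 and 1 in controls. Leaving out single arrays ended the Clpp and Grpel2 calls and the Cct3 call in LG2KO. Cirbp, an RNA-binding protein that rises in the cold, read 7.85, 7.04 and 7.51 in refed LG2KO livers, against 9.24, 9.40 and 9.41 in fasted ones. Its control values were 7.70, 7.37 and 7.36 refed, against 9.49, 9.17 and 9.04 fasted. It fell by 1.88 ± 0.19 in LG2KO and by 1.76 ± 0.19 in controls, without overlap between feeding states. None of the 5 measured members of the heat shock factor list (Hsf2, Hsf4, Hsf5, Hsbp1 and Hsf2bp) passed in either genotype (limma). Of the 5, 1 in LG2KO and 0 in controls had an unadjusted p below 0.05 (3307 and 3038 of all 18194 genes). Hsf1 was not analysed here. Hsf2bp, a binding partner of HSF2, passed in LG2KO when both arrays that stood apart were left out (0.56, adjusted p = 0.00679).

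**Figure D5:**
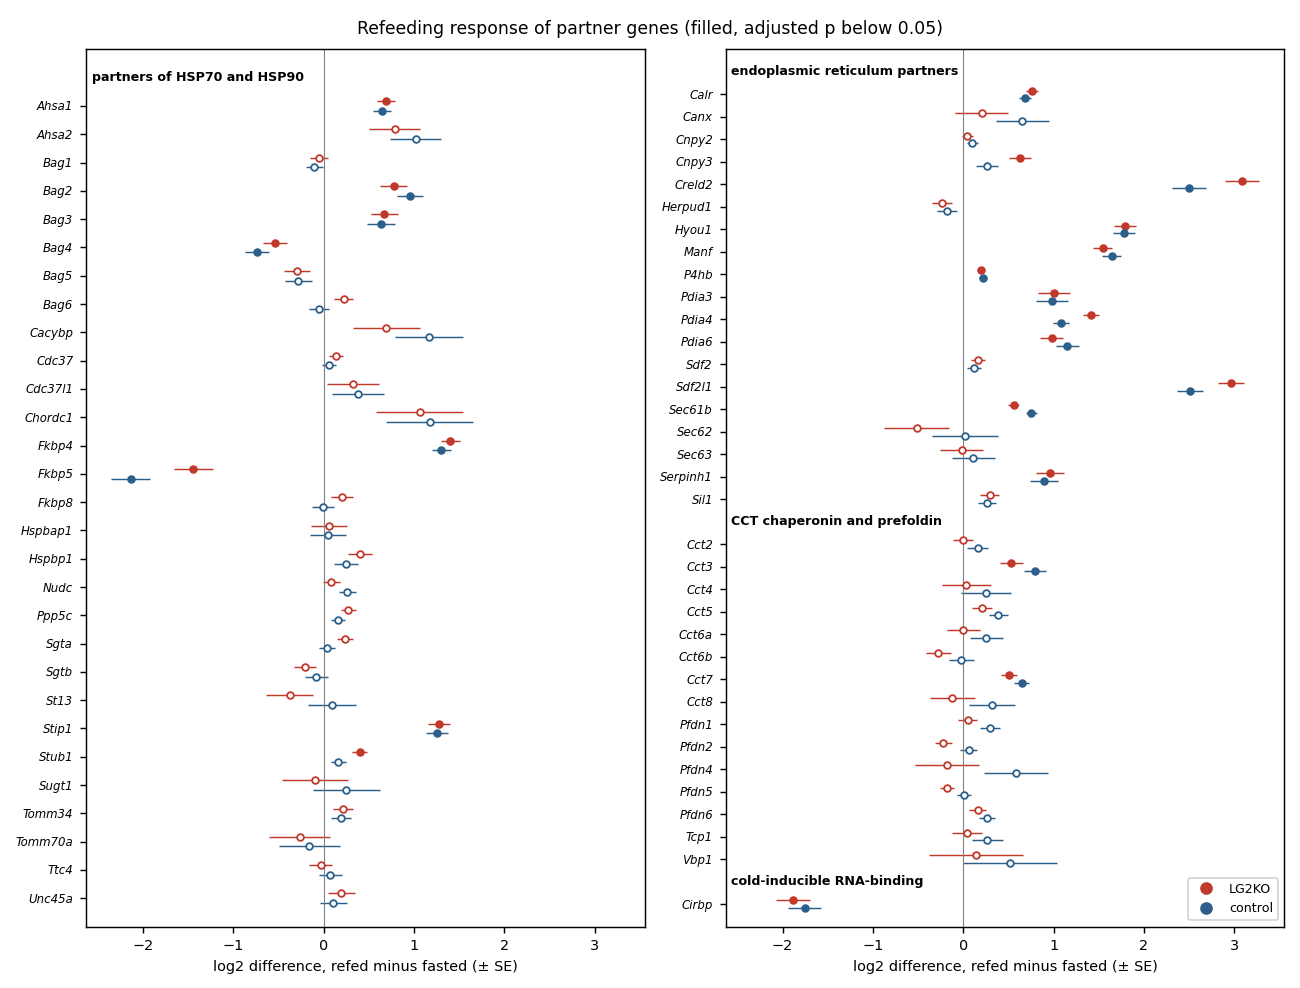
Refeeding response of partner genes as log2 difference refed minus fasted (x axis, bars are standard errors) in LG2KO (red, upper of each pair) and control livers (blue, lower). Filled symbols passed an adjusted p below 0.05; Fkbp4, Stip1 and the endoplasmic reticulum partners Sdf2l1 and Creld2 lie to the right, and Fkbp5 and Cirbp to the left.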

How the data were processed

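Liver RNA was measured on 12 arrays, 3 pools of 3 animals in each of 4 groups. The authors deposited log2 expression values per probe set, made by RMA per the submitters' processing notes; its software and version: not given in the sources used here. Array number limits the precision, and the p-values measure the spread between pools. Of 45101 probe sets, 34958 carry 1 gene symbol in the platform annotation, 932 carry several and 9211 are not listed there or have no symbol. Each of the 18194 genes was represented by its brightest probe set, averaged over the 12 arrays; 44 of the 68 chaperone genes have more than 1.

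A mean per group was fitted to all 12 arrays with limma 3.58.1 in R 4.3.3 (lmFit, eBayes with an intensity trend, 8 residual degrees of freedom). P-values are two-sided, adjusted by Benjamini-Hochberg over all genes in each of 6 comparisons, with a threshold of 0.05. The fit was tested on simulated data. Tables and plots used Python 3.11.15, pandas 2.3.3 and matplotlib 3.10.9.

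Every chaperone gene could be named; values of all arrays are given for those that passed (at most the 10 with the smallest adjusted p per comparison) and for a set of classical members. Partners were named if among the 6 with the smallest adjusted p of those that passed in their list, with a few in any case; Hspb6, Dnajb14 and genes that passed after leaving out arrays were described after their values were seen. The members and lists were chosen with earlier results of these data known. Alternatives changed the variance model, the array weights, the arrays in the fit, the replicate block, the filter on dim genes, the choice of probe set and the centring.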

Additional observations from a re-analysis of the deposited data

How the results depend on the processing

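Across 21 alternatives, 60 named values that passed were recomputed 1255 times, kept their direction each time, and were past the threshold in 1165. Some alternatives change only the variance, or leave out arrays outside the groups compared, so the difference itself cannot move there. The 60 were also picked because they passed on these same arrays. With array weights 26 chaperone genes passed for refeeding in LG2KO (19.7% of all genes), 1 for LG2KO minus control refed (0.989%) and 4 for the mean genotype difference (2.43%). Without the 2 arrays that stood apart these counts were 22, 0 and 3 (17.5%, 0.286% and 1.29% of all genes), and the median interaction was -0.15. Leaving out single arrays gave 5 to 14 calls for refeeding in LG2KO (3.83% to 9.91% of all genes), 8 to 14 in controls (3.88% to 8.06%) and 0 to 3 for the mean genotype difference (0.484% to 1.14%), and a median interaction of -0.12 to -0.015. The counts for genotype refed, genotype fasted and the interaction were 0 each time an array was left out. Among values that did not pass, signs turned on single arrays: refeeding differences were -0.17 to 0.59 for Dnaja1, -0.13 to 0.017 for Hspa8 and -0.29 to 0.18 for Hspd1 in LG2KO, and -0.059 to 0.032 for Hspa8 in controls; without the 2 arrays Dnaja1 in LG2KO was -0.17. The cause was not tested. Deviations from group means correlated at -0.46 to 0.77 for same-numbered arrays of different groups and at -0.81 to 0.61 for differently numbered ones. These ranges overlap and rest on means of 3 arrays, so they cannot decide whether the labels' replicate numbers pair the samples. With the replicate block 9 genes passed for refeeding in LG2KO (7.1% of all genes in that fit) and 14 in controls (6.4%). Without the intensity trend Dnaja3 in controls and Hspe1 in LG2KO no longer passed (adjusted p = 0.0658 and 0.0572), and with robust estimation Hsp90aa1 in LG2KO and Hsp90b1 in controls did not (0.0525 and 0.0521). With the mean of all probe sets Dnajb14 in controls did not pass (0.73, adjusted p = 0.0561). The fit of only the groups compared does not exist for the mean genotype difference and the interaction. Dim probe sets limit 11 of the 68 genes, whose mean lies below the median of all probe sets.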
